A study of Mus musculus with 12 samples.

Results

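The genes described here are 7 genes of the brown adipocyte heat programme, Ucp1, Cidea, Adrb3, Ppargc1a, Elovl3, Dio2 and Prdm16, in 12 primary mammary tumours of mice. They are 7 of the 56860 genes in the deposited count table, chosen by name with their values in these tumours already known, and all 7 were among the 30660 genes kept by the filter on low counts. The tumours fell into 3 genotypes of 4 libraries each, all from mice carrying MMTV-PyMT, a transgene that expresses the polyoma virus middle T oncogene in mammary epithelium, and all collected at 4.5 months. The design text gives the controls, called WT here, as MMTV-Cre; MMTV-PyMT, although their strain label names the oncogene alone. The genotype called S1pr1_KO was MMTV-Cre;S1pr1fl/fl; MMTV-PyMT and the genotype called C3_KO was MMTV-Cre;C3Tdt:MMTV-PyMT, so that Cre was present in all 3 genotypes. Because the MMTV promoter acts chiefly, though not only, in mammary epithelial cells, other cells within a tumour, such as those of fat, can retain the targeted gene. In which cells the gene was lost was not tested. Nothing in the labels ties the 4 libraries of a genotype to separate animals, so the p-values below measure only the spread between these samples, which may be technical. Libraries are named by genotype and a number that only names them.

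Brown and beige adipocytes burn fat to make heat. Noradrenaline acting on the beta-3 adrenergic receptor, the product of Adrb3, raises cAMP, which releases fatty acids and induces Ppargc1a, Dio2 and Ucp1, and the protein UCP1 then lets protons leak across the inner mitochondrial membrane. The mouse mammary gland grows within a fat pad that is mainly white fat and in which brown-type adipocytes can occur. White adipocytes of mice express Adrb3 as well, and the other members are also known outside fat, for example Cidea in the lactating mammary gland, Elovl3 in skin and its glands, and Ppargc1a in muscle.

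In these tumours the 7 genes did not share a single pattern. Levels are given as CPM, counts per 1000000 counts of a library after TMM scaling. Ucp1 stood at 0.152 CPM or less in 10 of the 12 libraries, at 1.16 CPM in C3_KO 2 and at 48.3 CPM in S1pr1_KO 1. Cidea, Ppargc1a, Dio2 and Adrb3 were also highest in that tumour, Adrb3 by a margin of 1.02-fold over S1pr1_KO 2. Elovl3 was highest in C3_KO 3 and Prdm16 in C3_KO 1. Adrb3 followed adipocyte transcripts such as Adipoq in all 12 libraries. For each of the 7 genes the genotypes overlapped in all 3 comparisons.

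The libraries held between 230431880 and 484002378 counts. Levels of different genes are set side by side only as the deposited FPKM, which divides by gene length. The targeted genes did not separate the genotypes in whole-gene counts. For S1pr1 the S1pr1_KO libraries ranged from 2.59 to 7.43 CPM, the WT libraries from 2.88 to 8.02 CPM and the C3_KO libraries from 5.94 to 9.94 CPM. For C3 the C3_KO libraries ranged from 41.6 to 75.1 CPM, the WT libraries from 43.3 to 182 CPM and the S1pr1_KO libraries from 43.4 to 273 CPM. Genotypes below are therefore those of the labels. Several libraries stood apart by markers of tissues other than tumour. S1pr1_KO 1 had 28673 CPM of the salivary amylase gene Amy1, C3_KO 3 had 24191 CPM of the milk casein gene Csn2 and 178 CPM of the skin keratin gene Krt10, and WT 2, C3_KO 2 and S1pr1_KO 1 had 380, 221 and 161 CPM of the muscle creatine kinase gene Ckm.

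The promoters of 3 of the 5 members that were highest in S1pr1_KO 1 are shown because these genes are classical targets of the adrenergic signal and of nuclear receptors. Promoter windows, running from 250 bases before to 50 bases after the gene start in RefSeq on GRCm38.p6, were found for 4 of the 7 members, the 4th being Prdm16. The windows lie at chr8:83290098-83290397 on the plus strand for Ucp1, at chr5:51567676-51567975 on the minus strand for Ppargc1a and at chr12:90738989-90739288 on the minus strand for Dio2. Capitals mark matches to AGGTCA, a binding hexamer of nuclear receptors, to TGACGT, the core of the cAMP response element, and to TATAAA, the TATA box, each searched on both strands.
Ucp1: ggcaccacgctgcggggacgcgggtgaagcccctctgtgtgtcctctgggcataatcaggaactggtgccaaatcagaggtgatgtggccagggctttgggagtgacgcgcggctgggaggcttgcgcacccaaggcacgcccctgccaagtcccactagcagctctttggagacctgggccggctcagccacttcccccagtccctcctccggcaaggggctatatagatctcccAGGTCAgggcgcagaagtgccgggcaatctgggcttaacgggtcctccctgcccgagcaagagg
Ppargc1a: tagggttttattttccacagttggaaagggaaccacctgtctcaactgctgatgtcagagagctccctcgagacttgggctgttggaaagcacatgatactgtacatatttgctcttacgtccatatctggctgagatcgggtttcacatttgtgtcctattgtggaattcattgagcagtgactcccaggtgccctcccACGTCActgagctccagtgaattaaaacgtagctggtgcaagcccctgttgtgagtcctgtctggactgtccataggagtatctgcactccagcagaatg
Dio2: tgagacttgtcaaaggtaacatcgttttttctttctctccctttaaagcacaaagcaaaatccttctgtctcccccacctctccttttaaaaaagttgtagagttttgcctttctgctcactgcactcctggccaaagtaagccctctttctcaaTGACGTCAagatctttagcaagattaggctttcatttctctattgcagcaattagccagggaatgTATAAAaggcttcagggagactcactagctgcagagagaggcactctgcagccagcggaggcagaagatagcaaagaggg
The Ucp1 window held AGGTCA with its first base at -14 from the start. The Ppargc1a window held TGACGT on the reverse strand at -50, read there as ACGTCA. The Dio2 window held TGACGT on both strands at -95 and -93, overlapping within the palindrome TGACGTCA, and TATAAA at -30. Of 32851 RefSeq promoter windows of the same length, 16.3% held AGGTCA, 7.51% held TGACGT and 13.6% held TATAAA on either strand, so these matches describe letters only. CCAAT, the motif searched besides, was held by 37.4% of the windows and among the members by Prdm16, at -98.

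Adrb3, the receptor at the head of the pathway, stood at 0.0458, 1.22, 0.230 and 0.226 CPM in WT 1 to 4. It stood at 2.34, 2.38, 0.554 and 0.751 CPM in C3_KO 1 to 4 and at 12.6, 12.4, 0.217 and 1.30 CPM in S1pr1_KO 1 to 4. S1pr1_KO 1 and 2 were alike and stood above every other tumour, S1pr1_KO 3 lay among the low controls, and all 3 genotypes overlapped. Adipoq, the adiponectin gene of mature adipocytes, showed the same order of tumours at its ends, with 0.303 CPM in WT 1 and 52.7 and 49.96 CPM in S1pr1_KO 1 and 2. Over the 12 libraries Adipoq spanned 174-fold, whereas the ratio of Adrb3 counts to Adipoq counts spanned only 4.00-fold, from 0.107 in WT 2 to 0.427 in C3_KO 3. The ratio was 0.240 in S1pr1_KO 1 and 0.248 in S1pr1_KO 2. For comparison, the ratio of Cidec, a lipid droplet gene of white fat, to Adipoq spanned 1.71-fold, from 0.919 to 1.57.

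The genes whose log2 CPM was most like that of Adrb3 over the 12 libraries, among 14293 genes with an average of at least 1 CPM, were Cidec (Pearson r = 0.97), Adipoq (0.97), Plin1 (0.97), Pck1 (0.97) and Fabp4 (0.96), all genes of mature adipocytes. The same 5 genes came first by Spearman's rho and without S1pr1_KO 1. These correlations describe 12 points that share the scaling of each library. In bulk tumours, fewer adipocytes and less Adrb3 RNA per adipocyte cannot be told apart. Exons of Adrb3 overlap those of the antisense gene Gm45470, which had 405 counts in S1pr1_KO 1 and 1351 in S1pr1_KO 2 beside 2775 and 4582 counts of Adrb3. How strand was handled is not given in the sources used here, so reads of the pair cannot be told apart.

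**Figure D1:**
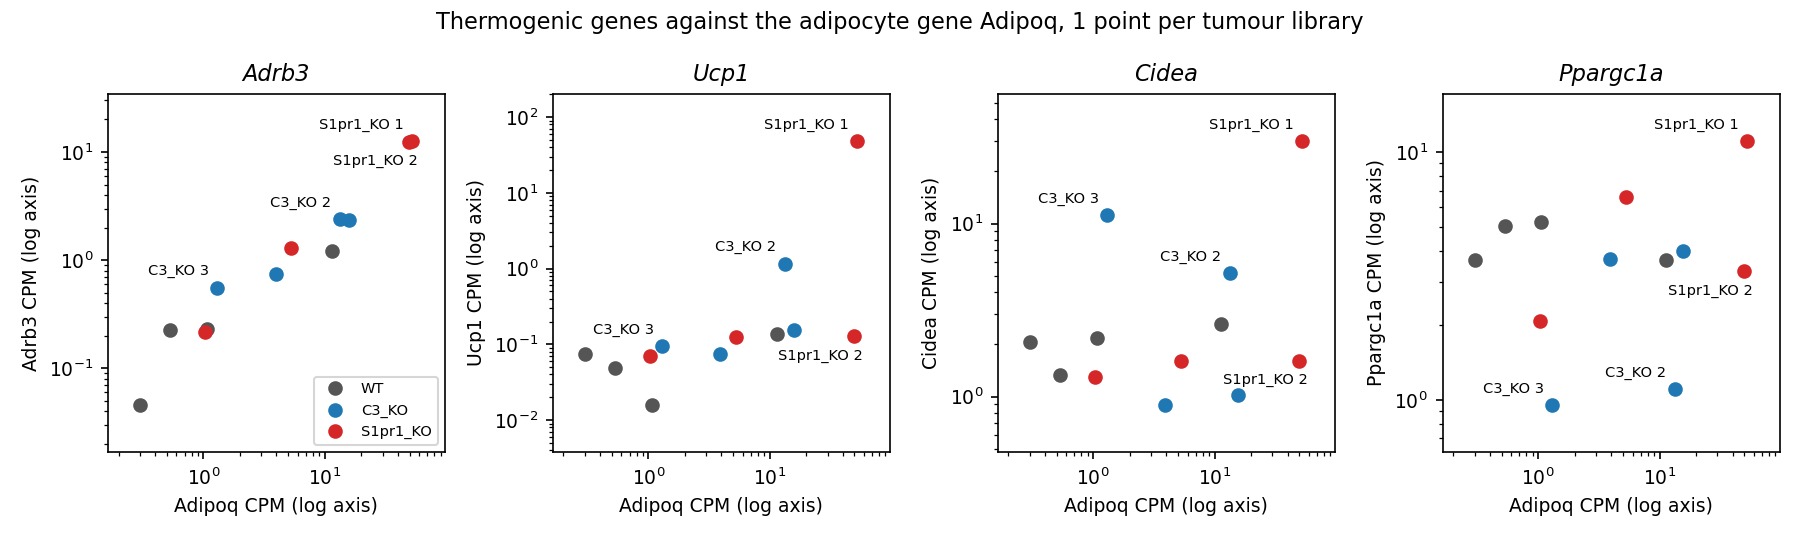
CPM of Adrb3, Ucp1, Cidea and Ppargc1a (vertical, log axis) against CPM of the adipocyte gene Adipoq (horizontal, log axis), with 1 point per tumour library coloured by genotype. Adrb3 lies along a line through all 12 points, while Ucp1 sets S1pr1_KO 1 at 48.3 CPM apart from S1pr1_KO 2 at 0.127 CPM although their Adipoq values are 52.7 and 49.96 CPM.

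Ucp1, the uncoupling protein that defines thermogenic adipocytes, stood at 0.0740, 0.137, 0.0159 and 0.0487 CPM in WT 1 to 4. It stood at 0.152, 1.16, 0.0950 and 0.0754 CPM in C3_KO 1 to 4 and at 48.3, 0.127, 0.0702 and 0.126 CPM in S1pr1_KO 1 to 4. S1pr1_KO 1 held 95.9% of the summed level of the 12 libraries, 41.8-fold the next highest, C3_KO 2, and 508-fold the median of the other 11. These levels rested on 10615 counts in S1pr1_KO 1 and 410 in C3_KO 2, with exact 95% Poisson intervals of 47.4 to 49.2 and 1.05 to 1.27 CPM. The intervals treat each count as 1 independent read, which these counts are not, and so are too narrow even for counting error. The remaining 10 libraries had between 6 and 69 counts. Outside S1pr1_KO 1, the S1pr1_KO tumours lay within the range of WT, and the genotypes overlapped.

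The level of adipocyte markers did not order Ucp1 in the way it ordered Adrb3. The list called white adipocyte holds genes of mature adipocytes such as Adipoq. Whether their RNA came from white or brown adipocytes was not tested. The ratio of Ucp1 counts to Adipoq counts was 0.916 in S1pr1_KO 1 and 0.00254 in S1pr1_KO 2, a 360-fold difference between tumours of the same genotype, and these were the highest and the lowest of the 12 ratios. The next highest ratio, 0.244 in WT 1, rested on 21 counts of Ucp1 and 86 of Adipoq. Between the same 2 tumours the 18 white adipocyte markers had a median ratio of S1pr1_KO 1 to S1pr1_KO 2 of 1.06, with a range of 0.664 to 2.53, and leptin (Lep) was lower in S1pr1_KO 1, at 7.73 against 9.94 CPM. The 8 salivary markers had a median ratio of 769 and the 15 muscle markers one of 120, while the 8 tumour epithelium markers had one of 0.872. Salivary and muscle markers were thus high in the same tumour as Ucp1. WT 2 exceeded S1pr1_KO 1 in muscle markers, with Ckm at 380 CPM, and had 0.137 CPM of Ucp1. S1pr1_KO 4, next in salivary markers, had 0.126 CPM of Ucp1. Its salivary markers summed to only 4707 CPM, against 152455 CPM in S1pr1_KO 1, with mean log2 CPM of 5.95 against 9.40. These values describe single tumours, and the part of these tissues in the level of Ucp1 was not tested.

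The genes most like Ucp1 were Gdf6 (Pearson r = 0.91), Cldn24 (0.91), Cldn22 (0.91), Dusp26 (0.88) and Ltbp4 (0.88), each highest in S1pr1_KO 1. None of these 5 stayed among the first 5 by Spearman's rho or without S1pr1_KO 1, and without that tumour r stood at 0.85 for Ltbp4 and between 0.30 and 0.64 for the rest. For all of these genes but Ltbp4 the likeness thus rested largely on the same tumour as the level. Cldn22 overlaps Wwc2 on the opposite strand. Wwc2 had 26813 counts in S1pr1_KO 1, within its range of 19836 in C3_KO 3 to 37632 in WT 4, so it did not peak where Cldn22 did.

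**Figure D2:**
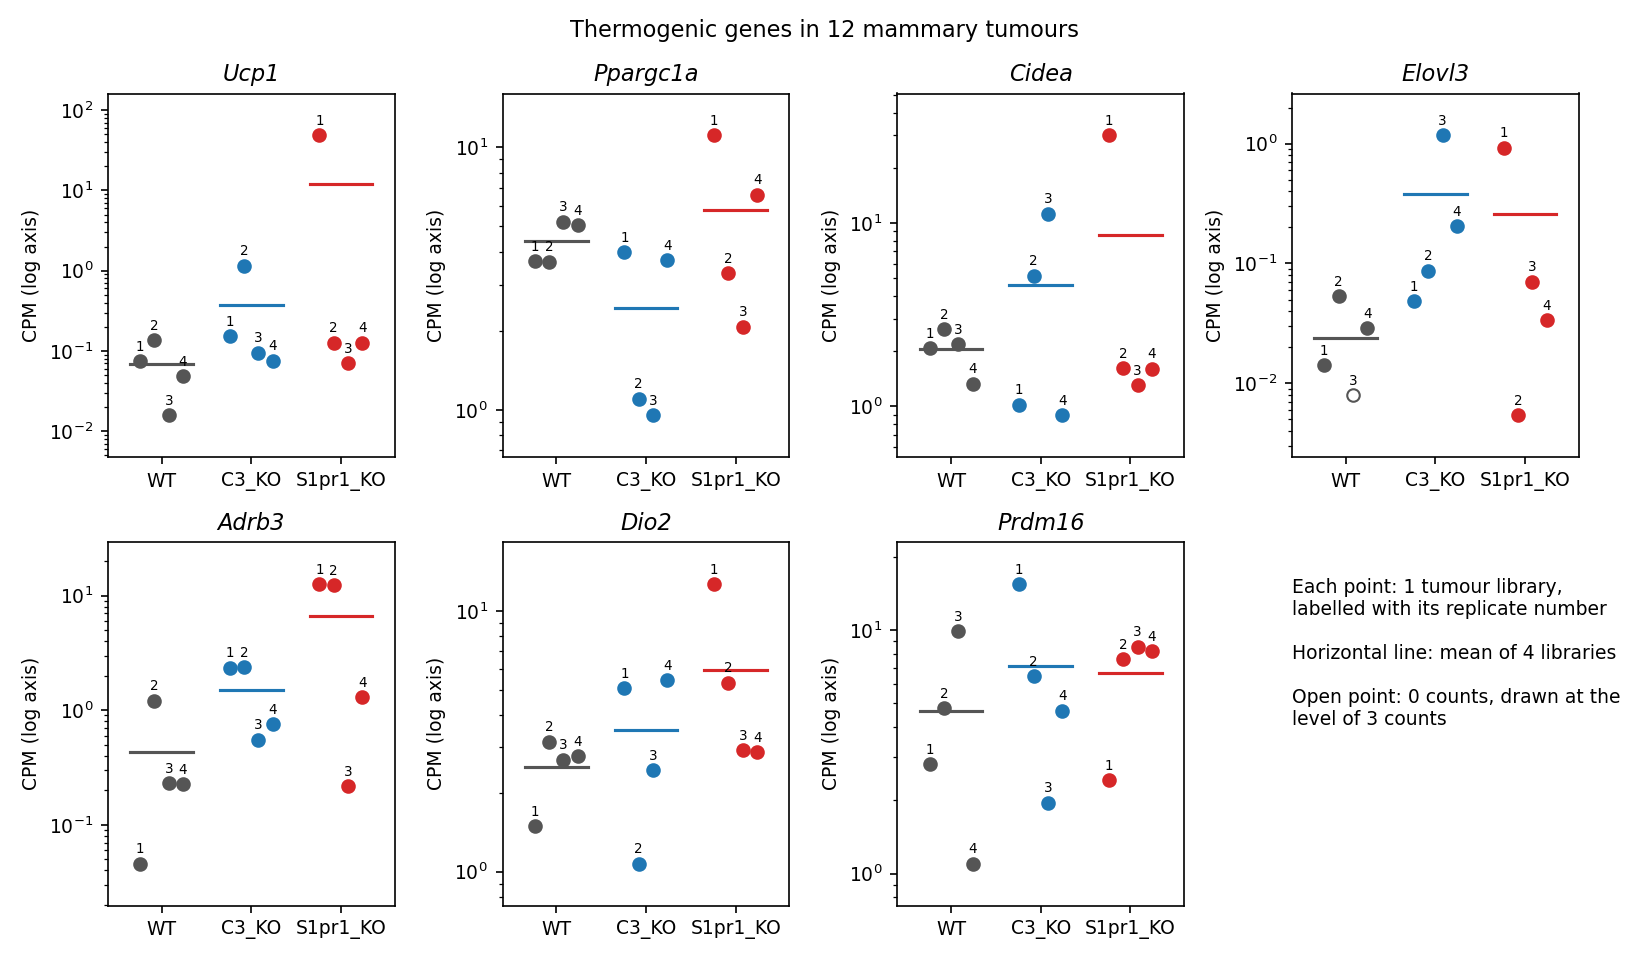
CPM of the 7 genes (log axis, a panel per gene) in the 12 tumour libraries, grouped by genotype, with 1 numbered point per library, a line at each mean of 4 and an open point for the 0 counts of Elovl3 in WT 3, drawn at the level of 3 counts. S1pr1_KO 1 is highest for Ucp1 at 48.3 CPM, Cidea at 30.0 CPM, Adrb3 at 12.6 CPM, Ppargc1a at 11.1 CPM and Dio2 at 12.7 CPM, C3_KO 3 for Elovl3 at 1.17 CPM and C3_KO 1 for Prdm16 at 15.5 CPM.

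Cidea, which encodes a protein of the lipid droplet surface that promotes the transfer of lipid between droplets, stood at 2.08, 2.63, 2.19 and 1.33 CPM in WT 1 to 4. It stood at 1.02, 5.15, 11.2 and 0.895 CPM in C3_KO 1 to 4 and at 30.0, 1.61, 1.30 and 1.61 CPM in S1pr1_KO 1 to 4. S1pr1_KO 1 was the highest, C3_KO 3 and C3_KO 2 came next, and the remaining 9 lay between 0.895 and 2.63 CPM, where the genotypes overlapped. The ratio of Cidea to Adipoq counts was 0.569 in S1pr1_KO 1 and 0.0323 in S1pr1_KO 2, a 17.6-fold difference. The value in S1pr1_KO 2 was the lowest of all libraries, and the median was 0.478, near that of S1pr1_KO 1. The ratio was highest in C3_KO 3, at 8.63, and next in WT 1, at 6.85, where Cidea stood at 2.08 CPM. C3_KO 3 was also the tumour with the highest mean log2 CPM of milk, skin and sebaceous markers, whose part in Cidea was not tested. By summed CPM its sebaceous markers, at 83.4, lay below those of S1pr1_KO 3, at 110.6, and C3_KO 2, at 108.2. The genes most like Cidea were Hoxd8 (r = 0.83), Galnt6 (0.82), Procr (0.81), Man1a (0.80) and Rell1 (0.79). None of them stayed among the first 5 by Spearman's rho or without S1pr1_KO 1. Without that tumour r rose to 0.89 for Rell1, which was highest in C3_KO 3, and stood between 0.61 and 0.65 for the rest.

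Elovl3, an elongase that makes very long chain fatty acids, stood at 0.0141, 0.0531, 0 and 0.0288 CPM in WT 1 to 4. It stood at 0.0486, 0.0873, 1.17 and 0.206 CPM in C3_KO 1 to 4 and at 0.928, 0.00541, 0.0702 and 0.0334 CPM in S1pr1_KO 1 to 4. C3_KO 3 with 370 counts and S1pr1_KO 1 with 204 counts were high, every other library had 60 counts or fewer, and the genotypes overlapped. The count of 0 in WT 3 allows a level of up to 0.00793 CPM, taking 3 counts as the limit. The genes most like Elovl3, Slc25a48 (r = 0.86), Rnf152 (0.80), Tc2n (0.77), Dusp3 (0.77) and Cd44 (0.77), were all highest in C3_KO 3, the tumour rich in skin and milk transcripts. Without S1pr1_KO 1 the first 5 were Elovl7, the skin genes Krt10 and Dsg1a, Sowahb and Pak1. None of the genes named before stayed among them, though their r still stood between 0.75 and 0.83. By Spearman's rho the first 5 were Pkn3, Ldb3, Slc25a48, Bdkrb2 and Sirpa, so only Slc25a48 stayed. Elovl3 overlaps Pitx3 on the opposite strand, which had 6 counts in C3_KO 3 and 16 in S1pr1_KO 1, but 97 in WT 2 beside 26 of Elovl3 and 10 in WT 3 beside 0. Reads of this pair cannot be told apart either, nor those of Dio2 and Gm26512, with 28 to 180 counts per library, or of Prdm16 and B230104I21Rik, with 0 to 20.

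Ppargc1a, the coactivator PGC-1alpha that drives mitochondrial biogenesis, stood at 3.67, 3.67, 5.21 and 5.05 CPM in WT 1 to 4. It stood at 3.98, 1.10, 0.953 and 3.72 CPM in C3_KO 1 to 4 and at 11.1, 3.31, 2.07 and 6.60 CPM in S1pr1_KO 1 to 4. It was detected in every tumour, with C3_KO 2 and 3 lowest and S1pr1_KO 1 and 4 highest, and the genotypes overlapped. Per Adipoq count it was lowest in S1pr1_KO 2, at 0.0662, and highest in WT 1, at 12.1, so it did not follow Adipoq. The genes most like it were Ighg2c (r = 0.94), Slc25a21 (0.94), Cyp2j6 (0.93), Cldn10 (0.92) and Akap5 (0.91), and 4 of these 5 stayed among the first 5 without S1pr1_KO 1 but only 1, Cyp2j6, by Spearman's rho. S1pr1_KO 1 and 4, the tumours with the highest Ppargc1a, were also those with the highest salivary marker scores, whose part in Ppargc1a was not tested.

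Prdm16, a zinc finger protein that directs precursor cells towards the brown fat fate, stood at 2.81, 4.76, 9.87 and 1.10 CPM in WT 1 to 4. It stood at 15.5, 6.47, 1.95 and 4.66 CPM in C3_KO 1 to 4 and at 2.42, 7.60, 8.55 and 8.20 CPM in S1pr1_KO 1 to 4. In the tumour with the most Ucp1 it was thus the lowest of its genotype, 0.318-fold the level in S1pr1_KO 2, and the genotypes overlapped. The genes most like it were Mapre2 (r = 0.83), Tfap2b (0.82), Crabp1 (0.77), Gzmc (0.75) and Pcdhb20 (0.75). Of these, 3 stayed among the first 5 by Spearman's rho and 2 without S1pr1_KO 1.

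Dio2, the deiodinase that makes active thyroid hormone inside the cell, stood at 1.497, 3.16, 2.69 and 2.77 CPM in WT 1 to 4. It stood at 5.07, 1.07, 2.45 and 5.44 CPM in C3_KO 1 to 4 and at 12.7, 5.32, 2.92 and 2.87 CPM in S1pr1_KO 1 to 4. S1pr1_KO 1 was the highest and 2.34-fold the next, and the genotypes overlapped. Among the 5 genes most like Dio2 were Jaml (r = 0.93), Jam3 (0.93), Slamf6 (0.92) and Irag2 (0.91), each highest in S1pr1_KO 1. None of these 4 stayed among the first 5 without that tumour, but their r still stood at 0.91, 0.87, 0.87 and 0.86. By Spearman's rho Jam3 came first. B cell markers were highest in the same tumour, with a mean log2 CPM of 4.20, and in S1pr1_KO 2, with 3.35, and their part in Dio2 was not tested.

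Per gene length the order of the 7 genes differed between tumours. Cidea had the highest FPKM of the 7 in 8 of the 12 libraries, including all 4 WT tumours, where it lay between 1.13 and 2.38 FPKM. In S1pr1_KO 1 the order by FPKM ran from Ucp1 at 26.1 and Cidea at 23.8 through Adrb3 at 3.30, Dio2 at 1.75, Ppargc1a at 1.49 and Elovl3 at 0.415 to Prdm16 at 0.229. In S1pr1_KO 2 it ran from Adrb3 at 4.78 and Cidea at 1.88 through Dio2 at 1.08, Prdm16 at 1.06 and Ppargc1a at 0.653 to Ucp1 at 0.101 and Elovl3 at 0.00357. Ucp1 therefore moved from the sixth place to the first between tumours of the same genotype and of nearly equal Adipoq.

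The comparison of S1pr1_KO with WT asked whether the loss of the sphingosine-1-phosphate receptor through MMTV-Cre went with a difference in tumour transcripts. Mean CPM in S1pr1_KO against WT was 12.2 ± 24.1 against 0.0688 ± 0.0513 for Ucp1 (SD, n = 4 each, as for all means here), 8.63 ± 14.2 against 2.05 ± 0.539 for Cidea and 6.63 ± 6.80 against 0.429 ± 0.531 for Adrb3. The SD exceeded the mean in S1pr1_KO for all 3 genes. The fitted log2 differences with standard errors from edgeR were 7.45 ± 2.27 for Ucp1, 3.94 ± 1.22 for Adrb3, 3.38 ± 1.499 for Elovl3, 2.07 ± 1.07 for Cidea, 1.24 ± 0.57 for Dio2, 0.53 ± 0.68 for Prdm16 and 0.39 ± 0.56 for Ppargc1a. Since the genes were chosen with these values known, they are given with no test. Without S1pr1_KO 1 the log2 difference stood at 0.70 for Ucp1, 0.63 for Elovl3, 0.61 for Dio2, -0.39 for Cidea and -0.08 for Ppargc1a. That of Adrb3 stayed between 3.45 and 5.30 whichever library was left out. Its high tumours, S1pr1_KO 1 and 2 at 12.6 and 12.4 CPM, were never left out together. This range therefore cannot show a shift of the whole genotype. S1pr1_KO 3 and 4 stood at 0.217 and 1.30 CPM, beside 0.0458 to 1.22 CPM in WT.

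The comparison of C3_KO with WT asked the same of complement component 3. The log2 differences were 3.93 ± 1.53 for Elovl3, 2.41 ± 1.84 for Ucp1, 1.81 ± 1.12 for Adrb3, 1.15 ± 1.05 for Cidea, 0.62 ± 0.68 for Prdm16, 0.47 ± 0.56 for Dio2 and -0.85 ± 0.56 for Ppargc1a. Single tumours carried several of them. Without C3_KO 3 the value stood at 2.20 for Elovl3 and 0.20 for Cidea, without C3_KO 2 at 0.64 for Ucp1, without C3_KO 1 at -0.09 for Prdm16 and without C3_KO 4 at 0.18 for Dio2. This comparison and the one before share the WT libraries.

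Between the knockouts, S1pr1_KO against C3_KO, the log2 differences were 5.04 ± 2.02 for Ucp1, 2.14 ± 1.13 for Adrb3, 1.24 ± 0.56 for Ppargc1a, 0.92 ± 1.04 for Cidea, 0.76 ± 0.56 for Dio2, -0.09 ± 0.68 for Prdm16 and -0.55 ± 1.35 for Elovl3. Without S1pr1_KO 1 the value turned to -1.74 for Ucp1 and -1.57 for Cidea and stood at 0.10 for Dio2, 0.74 for Ppargc1a and -3.34 for Elovl3, while without C3_KO 3 that of Elovl3 turned to 1.18. Without C3_KO 1 that of Prdm16 turned to 0.62.

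None of the 7 genes was called in any of the 3 comparisons by edgeR's quasi-likelihood test at a Benjamini-Hochberg adjusted p below 0.05. Over all 30660 genes tested this test called 0, or 0%, in each comparison, with 4743 (15.5%), 1909 (6.23%) and 1042 (3.4%) genes at an unadjusted p below 0.05 for S1pr1_KO against WT, C3_KO against WT and S1pr1_KO against C3_KO. DESeq2 called 955 (3.11%), 82 (0.267%) and 114 (0.372%) genes and limma-voom with quality weights called 7837 (25.6%), 5 (0.0163%) and 0 (0%), among the 7 genes only Adrb3 in S1pr1_KO against WT. All these shares are of the 30660 genes kept. DESeq2 with its default filters can leave a gene without an adjusted p-value, and such a gene counts here as not called. Of the 7 genes, 0 had genotypes that did not overlap in CPM, beside 7.58%, 3.04% and 1.31% of all genes in the 3 comparisons. Since the members were chosen with these contrasts known, nothing is read from their counts.

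Of 70 further genes of the thermogenic pathway, listed by role, edgeR called 0 in each comparison, with 10, 5 and 6 genes at an unadjusted p below 0.05 in the order above. DESeq2 called 3, 1 and 0 of them, namely Kcnk3, Pparg and Irf4 higher in S1pr1_KO than in WT and Dio1 lower in C3_KO than in WT, and limma-voom with quality weights called 16, 0 and 0. In S1pr1_KO against WT these counts come to 14.3% of the list at an unadjusted p below 0.05, 4.29% with DESeq2 and 22.9% with limma-voom. Of all 30660 genes kept the shares were 15.5%, 3.11% and 25.6%. At an unadjusted p below 0.05 the list's share was 7.14% in C3_KO against WT and 8.57% in S1pr1_KO against C3_KO, beside 6.23% and 3.4% of all genes. The 1 gene DESeq2 called in C3_KO against WT is 1.43% of the list, beside 0.267% of all genes. The median log2 difference of the list was 0.14, 0.08 and 0.23, beside 0.03, 0.05 and -0.03 over all genes tested. By tumour, S1pr1_KO 1 was the highest of the 12 libraries for 20 of the 70 genes, 28.6%, and for 10.4% of all genes tested.

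Among genes of uncoupling and brown fat mitochondria, 6 of 13 were highest in S1pr1_KO 1. Cox8b, a heart and brown fat subunit of cytochrome oxidase, stood at 15.1 CPM there and at 0.222 to 5.49 CPM elsewhere. Cpt1b, the muscle form of carnitine palmitoyltransferase, stood at 16.9 CPM there and at 9.65 CPM in WT 2, and Cox7a1 at 12.3 CPM there and at 9.86 CPM in WT 3. These 3 genes are expressed in skeletal muscle as well, whose markers were 120-fold higher at the median in S1pr1_KO 1 than in S1pr1_KO 2 and whose part was not tested. Kcnk3, a potassium channel of brown adipocytes, stood at 9.21 CPM in S1pr1_KO 1 and at 1.19 CPM or less elsewhere. Ucp3, the muscle relative of Ucp1, stood at 4.71 CPM in S1pr1_KO 1, 3.78 CPM in C3_KO 3 and 3.32 CPM in WT 2. Ucp2, the widely expressed relative, stood at 293 to 1463 CPM, highest in S1pr1_KO 3. Thus Ucp1 and Ucp3 were both highest in S1pr1_KO 1, and Ucp2 was not. In creatine and calcium cycling only Ryr2 of 8 genes was highest in S1pr1_KO 1, and Ckb, the creatine kinase of brown fat, was lower there, at 38.5 CPM, than in any WT tumour, at 56.5 to 106 CPM.

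Among 17 transcriptional regulators, 6 were highest in S1pr1_KO 1. Ebf2, which marks brown and beige precursors, stood at 5.21 CPM there, 2.42 CPM in S1pr1_KO 2 and at most 1.95 CPM elsewhere. Pparg, the master regulator of fat cells, stood at 9.27 and 6.05 CPM in S1pr1_KO 1 and 2 and at most 3.10 CPM elsewhere, with an edgeR log2 difference of 1.87 ± 0.62 to WT (adjusted p = 0.241). Irf4 stood at 8.85 and 8.78 CPM in the same 2 tumours and at most 2.09 CPM elsewhere, with a difference of 2.88 ± 0.81 (edgeR adjusted p = 0.216); B cells, whose markers were also highest in those 2 tumours, express it too, and their part was not tested. Lhx8 and Zic1, genes of classical brown rather than beige fat, stood at 1.60 and 0.177 CPM in S1pr1_KO 1, and at most 0.443 and 0.118 CPM elsewhere. Per Adipoq count, Lhx8 stood at 0.0303 in S1pr1_KO 1, beside a median of 0.0297 over all libraries. In the same terms Ebf2 stood at 0.0989 beside 0.264, Cox8b at 0.287 beside 0.400 and Kcnk3 at 0.175 beside 0.129. Each of these ratios was highest in WT 1, the library with the least Adipoq. They were 2.04-fold (Ebf2) to 10.2-fold (Kcnk3) higher in S1pr1_KO 1 than in S1pr1_KO 2. Ppara, a fatty acid receptor, stood at 2.31 CPM there and at most 1.16 CPM elsewhere. Ppargc1b, the relative of Ppargc1a, peaked instead in C3_KO 3 at 9.73 CPM, and Esrra, an orphan receptor that works with both, in S1pr1_KO 3 at 82.1 CPM.

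In the adrenergic group, 4 of 11 genes were highest in S1pr1_KO 1. Adrb1, the beta-1 receptor, spanned 8.80 CPM in WT 2 to 27.2 CPM in WT 4 without setting that tumour apart. Lipe, the hormone-sensitive lipase, stood at 89.4 and 77.3 CPM in S1pr1_KO 1 and 2 and at most 44.5 CPM elsewhere, while Pnpla2, the first lipase of fat breakdown, lay between 97.1 and 213 CPM in all 12. Among relatives of Cidea, Cidec stood at 53.4 and 51.6 CPM in S1pr1_KO 1 and 2, and Cideb was lowest of the 12 in S1pr1_KO 1 at 0.637 CPM. Elovl6, an elongase of shorter chains, peaked in C3_KO 3 at 67.6 CPM, the tumour in which Elovl3 peaked.

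Among genes of thyroid hormone action besides Dio2, 0 of 4 were highest in S1pr1_KO 1. Dio3, which inactivates thyroid hormone, stood at 2.38 CPM in S1pr1_KO 1 and 2.74 CPM in WT 2. Dio1, a deiodinase of liver and kidney, had at most 0.169 CPM in any tumour, with 0 counts in C3_KO 1, 3 and 4 and in WT 2 and 1 count in C3_KO 2, and did not pass in C3_KO against WT (edgeR adjusted p = 0.765). Of 4 beige markers 1, Tbx1, was highest in S1pr1_KO 1, at 1.43 CPM against 0.838 CPM in S1pr1_KO 2, and Tmem26 stood at 0.0951 to 0.470 CPM in all. Of 6 secreted factors 0 were highest there. Bmp7, which promotes brown fat formation, stood at 6.26 ± 3.41 CPM in C3_KO and 14.9 ± 3.53 CPM in WT, a log2 difference of -1.25 ± 0.41 (edgeR adjusted p = 0.765).

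**Figure D3:**
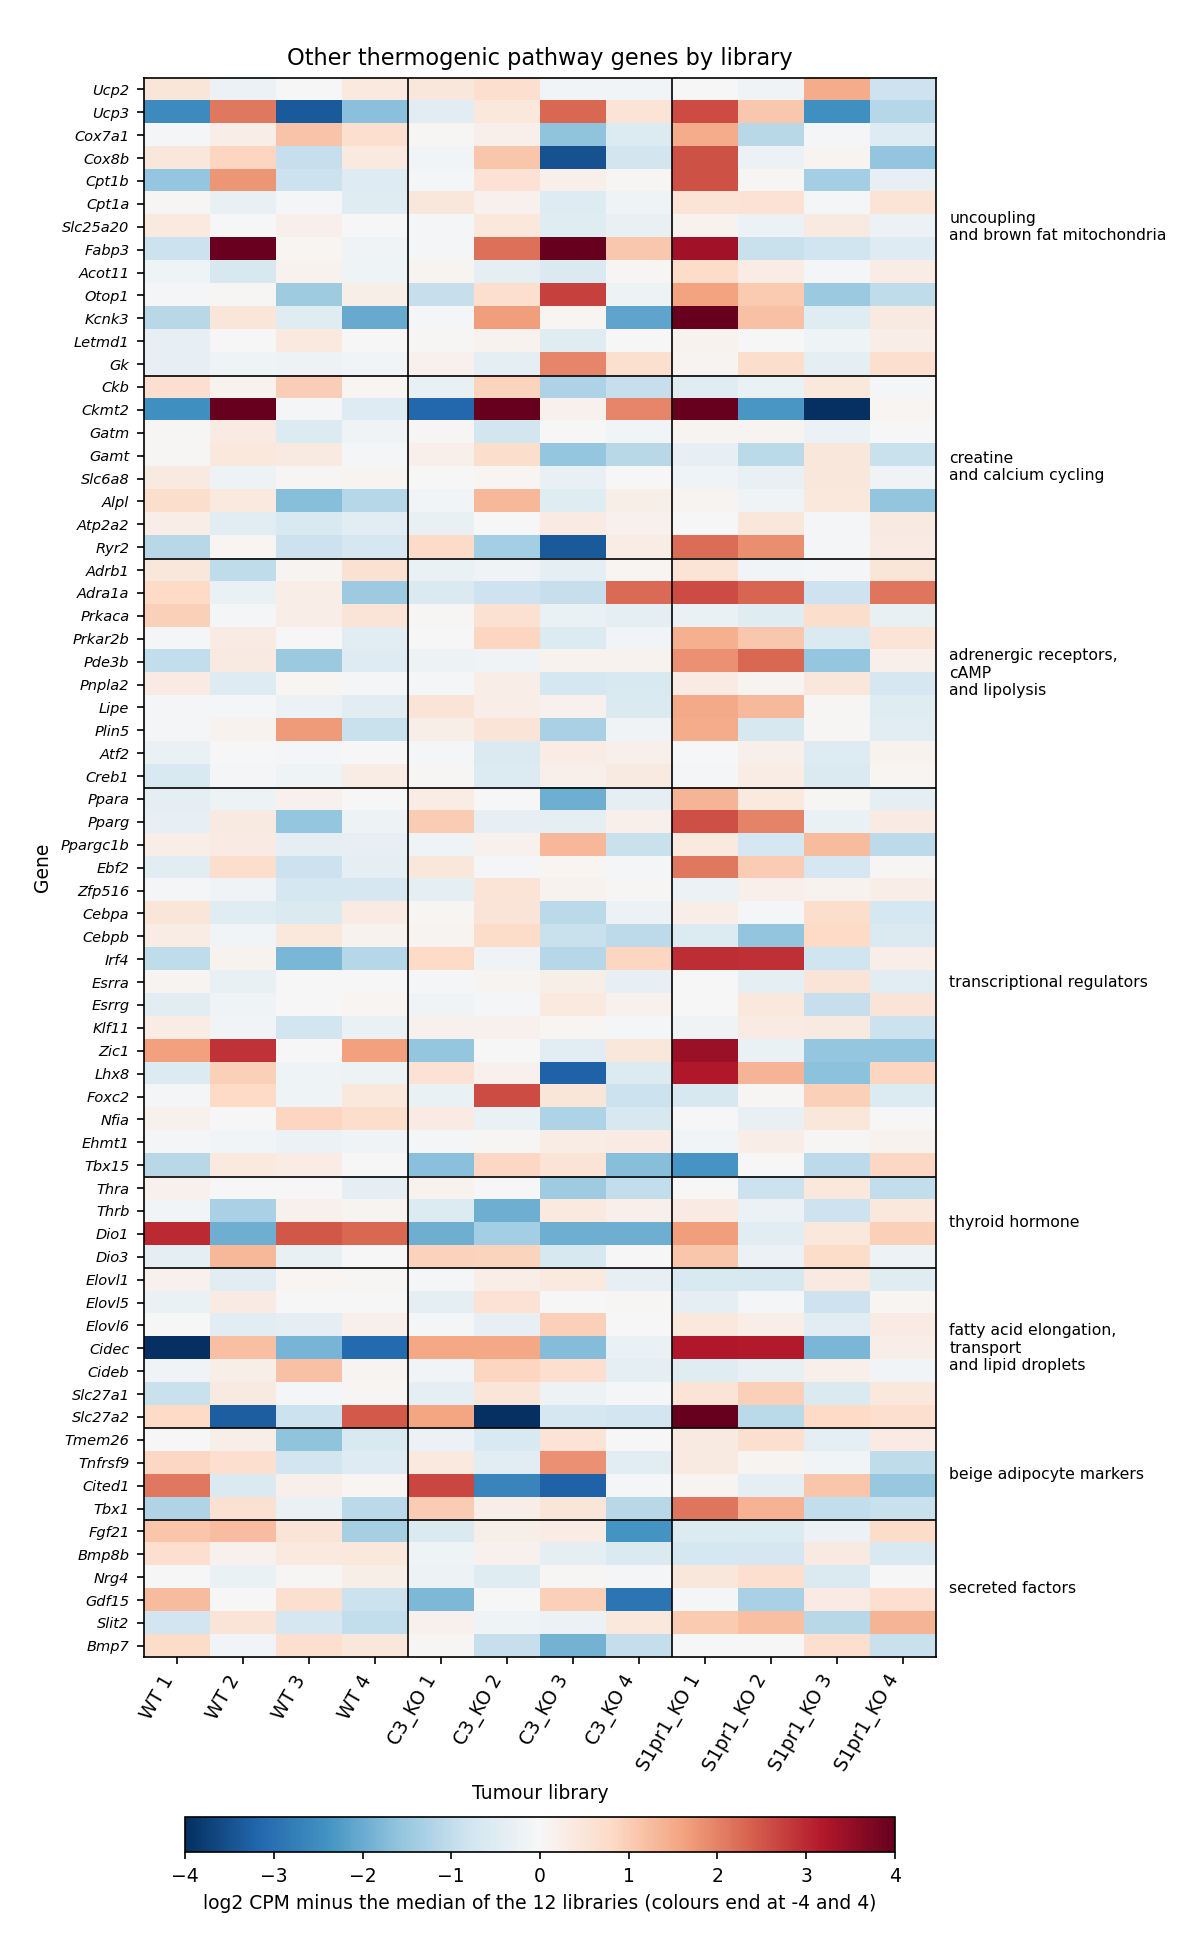
Log2 CPM of 69 of the 70 further pathway genes (vertical, ordered by role) in the 12 tumours (horizontal), coloured by the difference from each gene's median over the tumours, with colours ending at -4 and 4. S1pr1_KO 1 is the highest tumour for 20 of the 70 pathway genes, 6 of them in the uncoupling and mitochondrial group and 6 among the regulators.

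**Figure D4:**
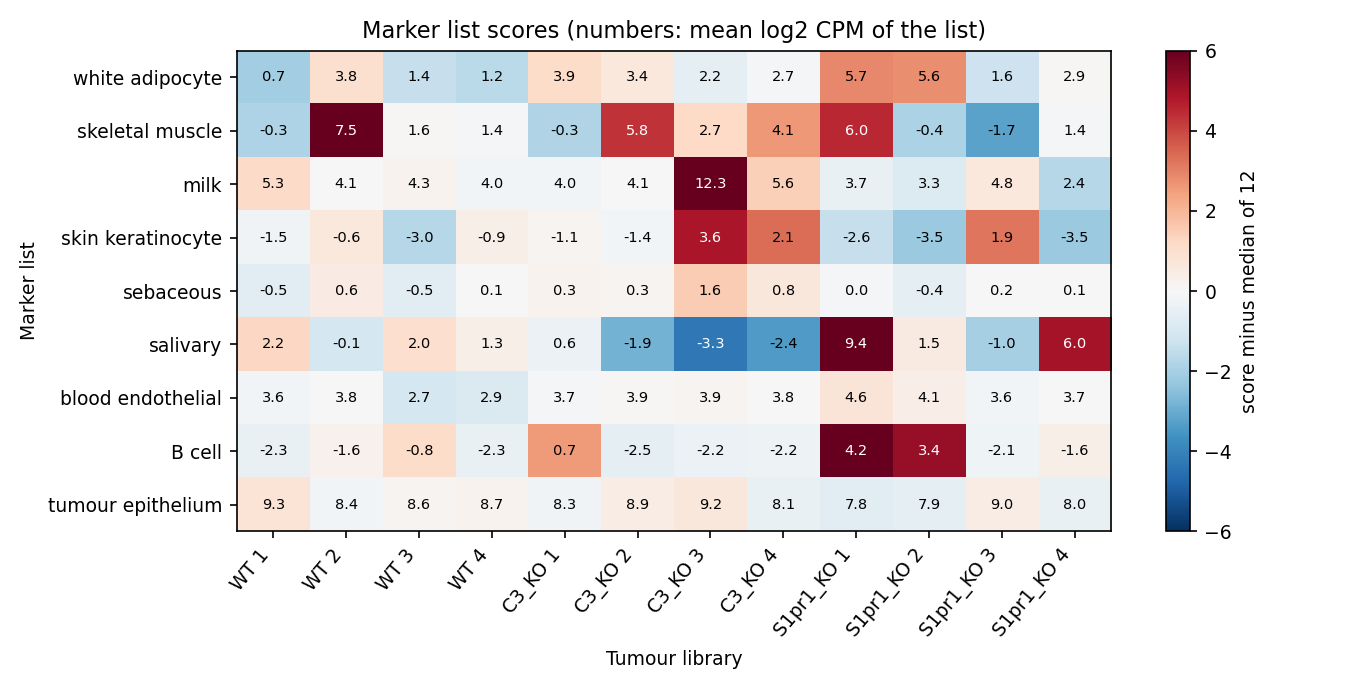
Mean log2 CPM of each marker list (vertical) in the 12 tumours (horizontal), with the score printed in each cell and coloured by its difference from the list's median over the tumours, with colours ending at -6 and 6. S1pr1_KO 1 and 2 have nearly the same white adipocyte score, 5.68 and 5.58, while S1pr1_KO 1 alone of the pair has high salivary and muscle scores, 9.40 and 6.04.

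The other tissues were set beside the members by their whole marker lists. The summed level of the 18 white adipocyte markers, all detected, ran from 180 to 667 CPM in WT, 290.3 to 584 CPM in C3_KO and 220.2 to 2159 CPM in S1pr1_KO. All 18 had a positive log2 difference in S1pr1_KO against WT, with a median of 2.32 beside 0.03 over all genes tested, of which 15838 of 30660 were positive. The sum was 2159 and 1809 CPM in S1pr1_KO 1 and 2, but 220.2 and 292 CPM in S1pr1_KO 3 and 4, below WT 2 at 667 CPM. All 18 were positive in C3_KO against WT as well, with a median of 0.82 beside 0.05, where 16622 of all genes were positive. The 8 salivary markers summed to 44.1 to 152455 CPM in S1pr1_KO and 29.1 to 205 CPM in WT, the 15 muscle markers to 25.5 to 2468 CPM and 38.9 to 4352 CPM, and the 8 tumour epithelium markers to 2369 to 5544 CPM and 3327 to 7144 CPM. In C3_KO the 8 milk markers summed to 3395 to 95518 CPM and the 8 skin markers to 11.6 to 525 CPM. These values stood beside the levels of Ucp1, Cidea and Elovl3 in S1pr1_KO 1 and C3_KO 3, and their part in those levels was not tested. Without the 3 tumours rich in milk or salivary transcripts, C3_KO 3 and S1pr1_KO 1 and 4, the log2 difference of S1pr1_KO to WT stood at 0.57 for Ucp1, -0.44 for Cidea and -0.65 for Ppargc1a.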

How the data were processed

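Total RNA of 12 tumours was sequenced, 4 per genotype by the genotype label. The authors deposited a table of raw counts per gene, whole numbers for 56860 genes, and a table of FPKM that equals the count per deposited length and library total for all 682320 values within a relative tolerance of 0.001, as tested on the files. Per the submitters' processing notes, StringTie and GRCm39 (mm39) were named with no role; no source used here gives the aligner, the counter or how strand was handled. Of the counts between 1 and 50, 60.2% to 64.4% per library were even, so single counts are not single independent reads.

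Counts were filtered with filterByExpr, scaled by TMM and fitted on all 12 libraries with edgeR 4.0.16 (quasi-likelihood F-test, robust; common biological coefficient of variation 0.564) in R 4.3.3, with Benjamini-Hochberg adjustment over 30660 genes and calls below 0.05. DESeq2 1.42.0, limma 3.58.1, other scalings and filters, log2 of FPKM plus 1 or 0.1, and fits leaving out libraries were alternatives, 22 in all. The edgeR step was tested on simulated counts. Likeness used log2 CPM with a prior count of 2. The deposited length per gene and 0 unused sample columns complete the tables.

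The members and all gene lists were chosen with earlier results of these data known. Named by rule were the 7 members, a list of pathway and tissue marker genes, the 2 pathway genes of smallest p in a comparison, and the 5 genes most like each member, less 2 of all these genes that are not reported here; a few further extremes were named after their values were seen.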

Additional observations from a re-analysis of the deposited data

Results flagged for a closer look

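For each of the 7 genes and each genotype, the gap between the most extreme library and its nearest neighbour was divided by the range of the 4 libraries on the log2 CPM scale, and values above Dixon's critical value for 4 samples stood out. Of 21 such groups 3 did, all through S1pr1_KO 1. Chance marks about 1 in 20 groups, but the genes were chosen with their values in that tumour known, so these values are a description and no test.

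Ucp1 in S1pr1_KO 1 had a value of 0.913, at 48.3 CPM against 0.0702 to 0.127 CPM in the other S1pr1_KO tumours. Cidea in S1pr1_KO 1 had a value of 0.932, at 30.0 CPM against 1.30 to 1.61 CPM. Prdm16 in S1pr1_KO 1 had a value of 0.907 in the other direction, at 2.42 CPM against 7.60 to 8.55 CPM. The same tumour was the highest of the 12 in white adipocyte, salivary, B cell and blood endothelial markers and the lowest in tumour epithelium markers, and the part of these tissues in the 3 values was not tested.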

How the results depend on the processing

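No paired analysis was possible because replicate numbers were given in accession order and pair nothing. In S1pr1_KO against WT, where edgeR called 0 genes, the count was 27 with library totals alone, 10 with no filter, 23 with a minimum of 1 CPM in 4 libraries, 955 with DESeq2, 7837 with limma-voom and quality weights, 33 and 43 on log2 of FPKM plus 1 and plus 0.1, and 68 with only the 2 genotypes in the fit. Leaving out each library in turn gave 0 to 1330, with 1330 without S1pr1_KO 3, 32 without C3_KO 4, 9 without C3_KO 1, 2 without C3_KO 3, 1 without S1pr1_KO 2 and 0 without the rest. In C3_KO against WT the count was 82 with DESeq2, 5 with limma-voom, 1 on log2 of FPKM plus 1, and 0 to 8 leaving out each library, with 8 without S1pr1_KO 3 and 3 without C3_KO 4. In S1pr1_KO against C3_KO it was 114 with DESeq2 and 0 to 3 leaving out each library, with 3 without C3_KO 4, 2 without C3_KO 1 and 1 without C3_KO 3. Of the 70 pathway genes, 3 were called with DESeq2, 16 with limma-voom (12 higher, 4 lower) and 0 to 5 leaving out each library in S1pr1_KO against WT, the 5 being Pde3b, Pparg, Irf4 and Slit2 higher and Bmp8b lower without S1pr1_KO 3, and 1 with DESeq2 in C3_KO against WT. Of the 7 members, 1, Adrb3, was called in S1pr1_KO against WT with DESeq2 and with limma-voom, and 0 to 1 leaving out each library, the 1 being Adrb3 without S1pr1_KO 3. The cause of these shifts was not tested. Of the 21 log2 differences of the members, 13 kept their sign under every alternative that could be fitted and 8 turned under at least 1. Besides the turns given above, Ppargc1a turned to -0.10 and Ucp1 to -2.18 in S1pr1_KO against C3_KO without the 3 tumours rich in milk or salivary transcripts. Ucp1 and Elovl3 had no value under the minimum of 1 CPM in 4 libraries. On log2 of FPKM plus 1 the difference of Ucp1 in S1pr1_KO against WT was 1.21, since the pseudocount exceeds its level in most libraries. Depth limits Ucp1 and Elovl3, which had fewer than 70 counts in 10 of the 12 libraries each.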
